A study of Mus musculus with 28 samples.

Results

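The comparison covers the 6 livers of male C3H/HeNCrlCrlj mice, an inbred strain, that received 90 mg/kg diethylnitrosamine once into the peritoneum. The 3 phenobarbital animals then ate 500 ppm phenobarbital in the diet for 27 weeks, and the 3 control animals ate the diet with 0 ppm over the same time. The animals were taken by their labels, and they are 6 of the 28 mouse livers of the study, each on 1 array. Diethylnitrosamine was given to both groups, so that values measured here compare phenobarbital with no phenobarbital after the carcinogen, and not the carcinogen with its absence. The labels give no age and do not say whether the piece of liver that was sampled held a nodule or tumour. The comparison experiments, used only at the end, are 7 days of 1000 ppm phenobarbital against 0 ppm in male hCAR/hPXR mice, which carry human CAR and PXR (n = 7 each), and 7 days of 1500 ppm against 0 ppm in male CD-1 mice (n = 4 each), both without diethylnitrosamine.

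Phenobarbital acts in liver mainly through the constitutive androstane receptor (CAR, gene Nr1i3), which enters the nucleus with the drug and switches on genes of drug metabolism, above all the Cyp2b family, and which shares target genes with the pregnane X receptor (PXR, gene Nr1i2). Diethylnitrosamine is activated to an alkylating agent by hepatocyte P450 enzymes and initiates liver tumours. Phenobarbital given afterwards is a classical promoter of such tumours in mice, and mouse liver tumours with an activated beta-catenin (Ctnnb1), the effector of canonical Wnt signalling, are known from this protocol. In normal liver, Wnt signals from the central vein keep a pericentral set of hepatocyte genes on, among them Glul, and a periportal set, among them the urea cycle enzymes, off.

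Levels are given as log2 of the array's processed signal minus that array's 75th percentile, so that a difference of 1 is a 2-fold difference, and levels of different genes cannot be set against each other. Of 18336 genes and transcripts tested with limma, 2705 (14.8%) passed an adjusted p of 0.05. Among them 1371 (7.48%) were higher and 1334 (7.28%) were lower in the phenobarbital livers, and 904 higher (4.93%) and 506 lower genes (2.76%) also differed at least 2-fold. For 248 of the called genes no array of 1 group was well above background. They were tested only through the other group, and the size of their change has only a lower bound. The groups did not overlap at 7635 genes (41.6%), 17.4% higher and 24.3% lower. These include every called gene, so that a lack of overlap adds nothing to a call. The median change over all tested genes was -0.045, against which the changes below may be read. Counts of list members called may likewise be read against the 7.48% of all tested genes called higher and the 7.28% called lower.

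The 3 phenobarbital livers were not alike, and animal 1 stood nearest to the controls. On the first principal component, which held 74.1% of the variance, phenobarbital animals 1, 2 and 3 lay at 19.9, 64.9 and 90.3, against -65.8, -48.3 and -61.0 for the 3 controls. Phenobarbital animal 1 lay closest to the control mean of the 3 at 1809 of the 2704 called genes with a value in all 3, animal 2 at 512 and animal 3 at 383. The 6 arrays lie on 1 slide, and animal 1 and the 3 controls occupy its first row while animals 2 and 3 occupy the second, so that the animal and its place on the slide cannot be told apart. Between 42.1 and 46.0% of probes were well above background in phenobarbital livers, against 41.3 to 45.2% in controls, and no spot was saturated. With the slide row as a block, which rests the contrast on animal 1, 427 genes were higher and 176 lower, among them Cyp2b10 (5.44, adjusted p = 0.00303), Glul (2.5, adjusted p = 0.00435) and Mki67 (3.87, adjusted p = 0.0267). Without phenobarbital animal 1 the test called 2402 genes higher (13.1%) and 3009 lower (16.4%), 29.5% in all. Leaving out another animal lowered the counts, to 459 higher and 179 lower without phenobarbital animal 2, 736 and 407 without animal 3, 487 and 139 without control animal 1, 659 and 246 without control animal 2, and 442 and 114 without control animal 3. Another scaling, normexp background with an offset of 50 and quantile normalization, called 1471 genes higher and 1353 lower. The offset raises dim signals, and 57 of the 147 called genes that are named here then had a change over 1.5 times smaller, such as Mki67 (2.81 in place of 4.65) and Cdc20 (3.62 in place of 5.25), while Cyp2b10 changed by 5.93 and Glul by 3.38. It is called the normexp setting below. Genes named below kept their call in all 6 fits that left out 1 animal unless the range of their adjusted p over those fits is given.

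**Figure D1:**
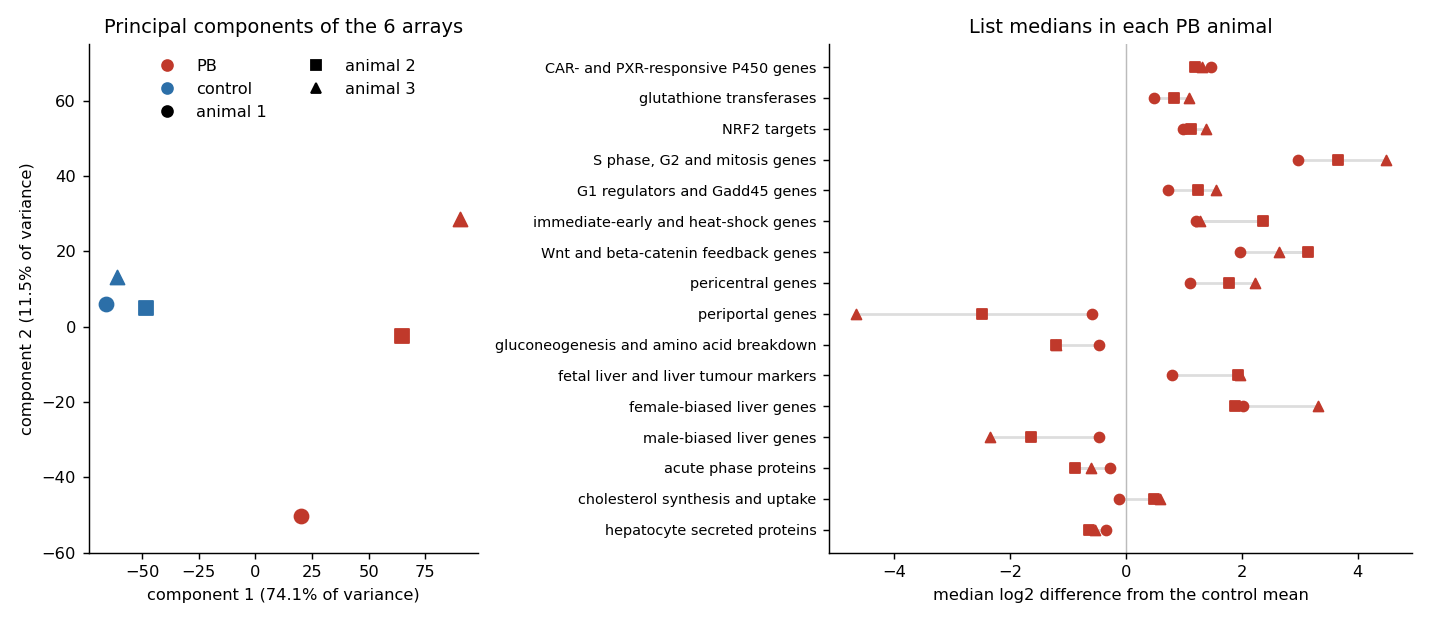
Left, the 6 C3H arrays on the first and second principal components of all tested genes, phenobarbital (PB) in red and control in blue, with the animal number as the symbol. Right, the median log2 difference from the control mean for 16 gene lists in each PB animal. PB animal 1 lies at 19.9 on component 1, between the controls and the other PB animals, and has the smallest fall of the periportal list, -0.58 against -2.48 and -4.66 in PB animals 2 and 3.

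The Cyp2b genes, the best known CAR targets, were far higher in every phenobarbital liver. Cyp2b10, the P450 enzyme by which CAR activity in mouse liver is usually read, had levels of 9.85, 10.13 and 10.45 in phenobarbital livers, against 3.97, 4.72 and 4.53 in control livers. All 3 phenobarbital livers lay more than 5 units above every control, and the fitted log2 change was 5.74 ± 0.25 (SE, n = 3 each, adjusted p = 0.000347), 53.3-fold. Its neighbours on chromosome 7, Cyp2b9 and Cyp2b13, which are female-biased genes in mouse liver, were also higher. Cyp2b9 had 3.11, 3.95 and 4.44 in phenobarbital livers, against -2.54, -1.50 and -2.30 in controls, a change of 5.95 ± 0.41 (adjusted p = 0.00145). Cyp2b13 had 2.93, 4.98 and 6.30 in phenobarbital livers, against -3.17, 0.29 and -2.26 in controls, a change of 6.45 ± 1.12 (adjusted p = 0.0191, 0.00574 to 0.0802 with 1 animal left out). The phenobarbital values of Cyp2b13 spread over more than 3 units with animal 1 lowest, and the groups did not overlap, as at every called gene.

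The promoters of these 3 genes and of Glul, the leading pericentral gene, are shown because the Cyp2b genes moved together while Glul belongs to the Wnt-dependent set. They are the 250 bases before the annotated start, from RefSeq on GRCm38.p6, written 5′ to 3′ along the gene. Capitals mark AGGTCA, the core letters that nuclear receptors bind.
Cyp2b10, chr7:25897408-25897657, + strand: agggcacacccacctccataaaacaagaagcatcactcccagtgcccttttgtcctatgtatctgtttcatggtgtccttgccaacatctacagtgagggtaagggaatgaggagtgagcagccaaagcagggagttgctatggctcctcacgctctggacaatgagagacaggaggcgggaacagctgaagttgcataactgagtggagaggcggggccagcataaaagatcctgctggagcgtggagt
Cyp2b9, chr7:26173159-26173408, + strand: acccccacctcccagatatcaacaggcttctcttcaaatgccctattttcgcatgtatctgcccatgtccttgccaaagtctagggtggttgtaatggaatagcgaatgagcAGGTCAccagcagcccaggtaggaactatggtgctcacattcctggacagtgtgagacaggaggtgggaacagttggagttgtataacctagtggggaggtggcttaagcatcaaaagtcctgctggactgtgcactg
Cyp2b13, chr7:26061245-26061494, + strand: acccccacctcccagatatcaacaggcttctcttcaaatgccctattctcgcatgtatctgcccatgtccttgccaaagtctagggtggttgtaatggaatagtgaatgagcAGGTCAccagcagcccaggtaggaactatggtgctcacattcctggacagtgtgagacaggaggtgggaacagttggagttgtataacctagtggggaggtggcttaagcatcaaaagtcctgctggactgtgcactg
Glul, chr1:153899679-153899928, + strand: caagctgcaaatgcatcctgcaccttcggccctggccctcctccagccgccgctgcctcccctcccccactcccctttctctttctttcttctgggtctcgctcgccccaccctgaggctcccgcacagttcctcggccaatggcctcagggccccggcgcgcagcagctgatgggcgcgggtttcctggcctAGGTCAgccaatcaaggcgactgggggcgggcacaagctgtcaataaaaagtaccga
Cyp2b9 and Cyp2b13 are identical at 248 of these 250 bases, while Cyp2b10 matches them, compared base by base without gaps, at only 66 and 65. Whether the probes of these close paralogues share signal was not tested, so that their values are uncertain as separate measurements. The windows were searched on both strands for AGGTCA, for TGAACT, another such core, and for CTTTGAT and CTTTGAA, the letters bound by TCF and LEF factors, and no matches overlapped. AGGTCA stood 138 bases before the start in Cyp2b9 and Cyp2b13 and 57 bases before it in Glul, and none of the 4 motifs was in this window of Cyp2b10. Of all 32851 windows of this length in the table, 14.0% held AGGTCA, 11.8% TGAACT, 3.21% CTTTGAT and 4.46% CTTTGAA. Of the 22 genes that rose and came under the rule for naming, 18 had a promoter in the table and 5 of those held any motif. These 5 include the near-identical Cyp2b9 and Cyp2b13. The share of all windows with any of the 4 motifs was not counted, so that 5 of 18 cannot be called many or few.

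Most P450 genes that answer to CAR or PXR rose with Cyp2b10. Of 20 members tested 14 rose and 1 fell, with a median of 1.27, and 10 to 13 rose when any animal but phenobarbital animal 1 was left out. Cyp2c55 had 6.51, 6.68 and 7.20 in phenobarbital livers, against 2.18, 2.38 and 2.5 in controls, a change of 4.45 ± 0.21 (adjusted p = 0.000347). Cyp2c66 had 3.29, 3.54 and 3.20 in phenobarbital livers, against -2.47, -2.82 and -2.35 in controls, the smallest p of the list (5.89 ± 0.17, adjusted p = 0.000225). In both genes the spread within a group was under 1 unit. Cyp2c65 was not well above background on any control array and was at least 64.6-fold higher in the phenobarbital livers (adjusted p = 0.000347). Such bounds set the phenobarbital mean against the dimmest signal that counts as well above background on the control arrays. A gene at background on every array of 1 group was tested only through the other group, and could hardly change the other way. Cyp2a4, a steroid 15-alpha hydroxylase, rose by 1.98 ± 0.13 (adjusted p = 0.00133). Cyp2a5 of the same list had no probe under its name, and whether the Cyp2a4 probe shares signal with it was not tested.

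The member that fell was Cyp3a25 (-0.95 ± 0.22, adjusted p = 0.04, 0.00299 to 0.128 with 1 animal left out), named after its value was seen. Cyp3a11, the main PXR target among mouse P450 genes, had 9.92, 9.59 and 9.66 in phenobarbital livers, against 9.93, 9.90 and 9.94 in controls. The groups overlapped, and the change of -0.20 ± 0.13 did not pass (adjusted p = 0.318). A second Cyp3a11 probe gave 0.21. Cyp1a2, a pericentral P450 of the AHR battery that CAR also raises, had 6.59, 7.25 and 7.20 in phenobarbital livers, against 5.10, 4.88 and 4.94 in controls (2.04 ± 0.20, adjusted p = 0.00371). Cyp2e1, the enzyme that activates diethylnitrosamine, had 10.27, 10.63 and 10.71 in phenobarbital livers, against 10.91, 9.80 and 10.91 in controls. Control animal 2 was the lowest of all 6, the groups overlapped, and the change was 0.00 ± 0.33 (adjusted p = 0.999).

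Por, the reductase that hands electrons to all microsomal P450 enzymes, had 7.56, 7.43 and 7.76 in phenobarbital livers, against 5.40, 5.42 and 5.23 in controls, a 4.68-fold rise (2.23 ± 0.14, adjusted p = 0.00113). It was 1 of 3 genes that rose among 16 of haem synthesis and P450 electron supply, with none lower and a list median of 0.15, and 1 or 2 rose when any animal but phenobarbital animal 1 was left out. The others were Blvrb (1.90, adjusted p 0.00107 to 0.0804 with 1 animal left out) and Hmox1 (1.20, 0.0104 to 0.101), which break haem down. A second Hmox1 probe gave 0.26. Alas1, the first enzyme of haem synthesis and a known phenobarbital target, had 7.69, 7.30 and 8.09 in phenobarbital livers, against 8.25, 5.66 and 6.47 in controls. Control animal 1 lay above every phenobarbital liver, and the change of 0.90 ± 0.63 did not pass (adjusted p = 0.351).

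Neither receptor passed the test. Nr1i3 had 4.51, 4.42 and 4.83 in phenobarbital livers, against 4.59, 4.78 and 5.03 in controls (-0.21 ± 0.17, adjusted p = 0.42). Nr1i2 had 3.42, 3.49 and 3.91 in phenobarbital livers, against 2.86, 3.04 and 3.05 in controls, with no overlap and a change of 0.62 ± 0.17 just above the threshold (adjusted p = 0.0528, and 0.0278 without phenobarbital animal 1). Among 25 nuclear receptors and hepatocyte transcription factors 2 rose and 1 fell, with a median of -0.10. Nr0b2 (SHP), the repressor that FXR induces, fell by 1.89 ± 0.25 (adjusted p = 0.00833). Ahr, the dioxin receptor, rose by 2.24 (adjusted p 0.00225 to 0.0877 with 1 animal left out) and Cebpb by 0.89 (0.02 to 0.0979).

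Glutathione transferases and NRF2 targets rose in part alongside the P450 genes. Of 21 glutathione transferases 10 rose and 2 fell, with a median of 0.81. Gstm2 had 9.09, 9.63 and 10.09 in phenobarbital livers, against 6.38, 6.49 and 6.70 in controls, and its change of 3.08 ± 0.26 (adjusted p = 0.00235) was matched by 3.19 and 3.44 at its other probes. Gstm3 rose by 2.82 ± 0.21 (adjusted p = 0.00168), Gstm4 by 2.24 ± 0.22 and Gstm1 by 1.32 ± 0.12. These Gstm genes are close paralogues whose probes may share signal. The 2 that fell were the Pi-class genes Gstp1 (-1.40, adjusted p 0.000988 to 0.149 with 1 animal left out) and Gstp2 (-0.52, 0.0179 to 0.145), named after their values were seen.

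Of 23 NRF2 targets, the genes that the oxidant sensor NRF2 controls, 16 rose and 1 fell, with a median of 1.20, and at least 9 rose whichever animal was left out. The list shares glutathione transferases, Abcc4 and Ephx1 with the drug metabolism lists. Nqo1, a quinone reductase that is the usual reporter of NRF2, had 1.90, 2.31 and 2.67 in phenobarbital livers, against -0.50, -0.27 and -0.57 in controls (2.73 ± 0.22, adjusted p = 0.00185). Cbr3, a carbonyl reductase, had 3.01, 2.99 and 3.19 in phenobarbital livers, against -0.97, -0.43 and -0.58 in controls (3.73 ± 0.17, adjusted p = 0.000347). Neither gene had a phenobarbital value within 2 units of a control. Among 30 reductases, hydrolases and dehydrogenases 12 rose and 2 fell (median 0.43), including Ephx1, the microsomal epoxide hydrolase (1.15 ± 0.14, adjusted p = 0.00639), Ces2b, a carboxylesterase (2.52 ± 0.33, adjusted p = 0.00849), and Akr1b7, an aldo-keto reductase (6.50 ± 0.64, adjusted p = 0.0036, well above background on 1 of 3 control arrays). Without any 1 of the other animals than phenobarbital animal 1, 5 to 7 of these 30 rose.

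Of 20 glucuronosyltransferase and sulfotransferase genes 7 rose and 1 fell, with a median of 0.11 and as many changes above 0 as below, and 4 to 6 rose when any animal but phenobarbital animal 1 was left out. Sult1e1, which inactivates oestrogen, had 5.73, 4.76 and 6.27 in phenobarbital livers, against 0.28, 2.14 and -0.17 in controls (4.84 ± 0.66, adjusted p = 0.00949). Control animal 2 was the highest control, as it was for several genes that rose steeply, and still lay under every phenobarbital liver. Sult2a2 was at least 15.4-fold higher (adjusted p = 0.0053), with no control array well above background, and Ugt2b34 rose by 1.26 ± 0.13. Among 20 hepatobiliary transporters 6 rose and 2 fell (median 0.10). Abcc4 (MRP4), a sinusoidal export pump, had 3.87, 4.94 and 5.15 in phenobarbital livers, against -2.31, -1.91 and -1.93 in controls, a rise of 6.70 ± 0.34 (adjusted p = 0.00051). Abcc2 (MRP2) rose by 1.16 ± 0.12, Abcb1a, the drug efflux pump P-glycoprotein, by 2.34 ± 0.24 and Slco1a4 by 1.32 ± 0.18. Slc22a7, the organic anion carrier OAT2, fell by 2.84 (adjusted p 0.00302 to 0.108 with 1 animal left out).

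**Figure D2:**
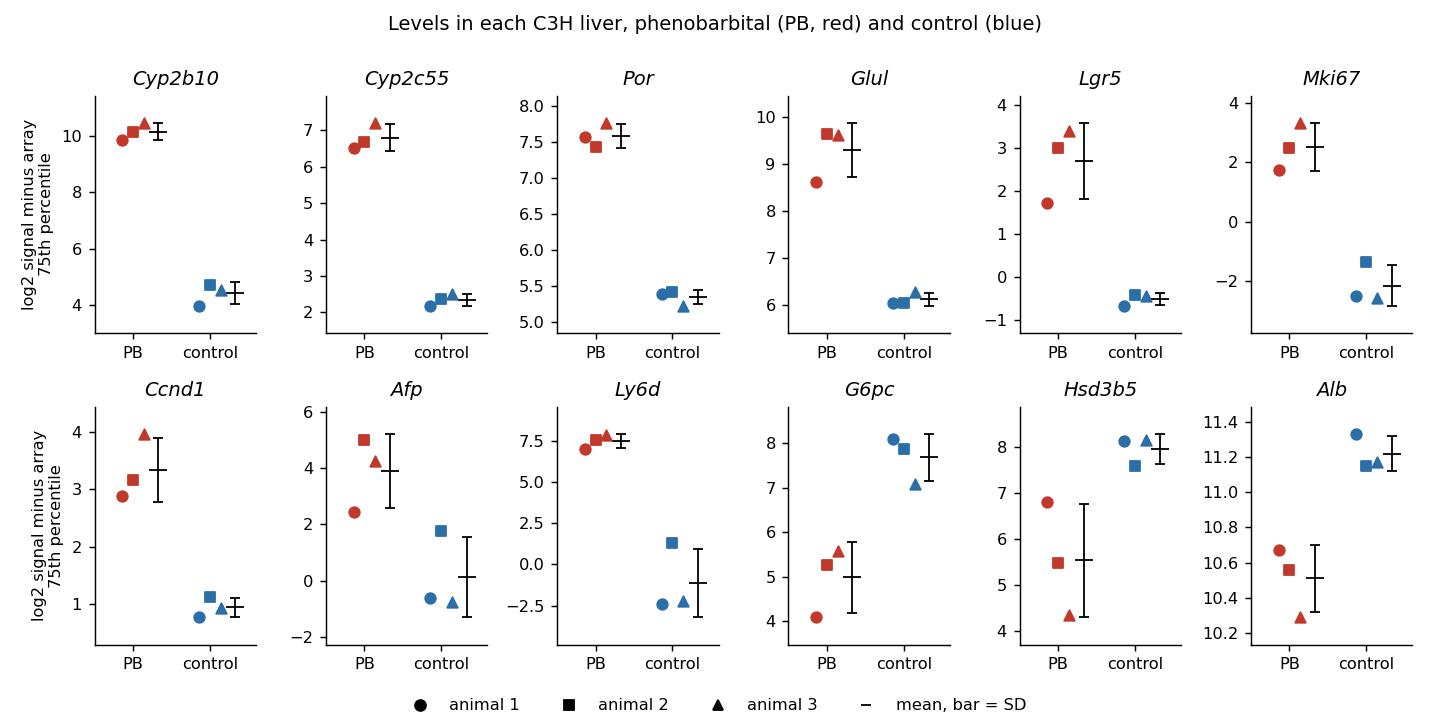
Level of 12 genes in each C3H liver, as log2 signal minus the array's 75th percentile, with phenobarbital (PB, red) left of control (blue), the animal number as the symbol, and the mean with its SD (n = 3). The scales differ between genes and do not start at 0. In none of the 12 genes do the groups overlap, as at every called gene. PB animal 1 is the PB value nearest to the controls in all of them but Por and G6pc.

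Genes of Wnt and beta-catenin feedback, which are switched on wherever beta-catenin is active, were strongly higher in the phenobarbital livers. Of 19 tested of 21 listed, 11 rose and 1 fell, with a median of 2.78, or 1.43 when the 3 genes measured on no control array well above background stand at their lower bound. Those 3 were tested only through the phenobarbital group and could hardly fall. The normexp setting called the same numbers, 11 and 1, with a median of 1.02. With any animal but phenobarbital animal 1 left out, 8 to 10 rose. Nkd1, a Dishevelled antagonist that Wnt induces, had 3.66, 5.39 and 4.78 in phenobarbital livers, against -0.08, -0.24 and -0.25 in controls (4.8 ± 0.41, adjusted p = 0.00245). Its second probe, above background on 4 of 6 arrays, gave 1.71. Lgr5, the R-spondin receptor, had 1.70, 3.00 and 3.38 in phenobarbital livers, against -0.68, -0.43 and -0.44 in controls (3.21 ± 0.42, adjusted p = 0.0081). The 3 controls lay within 1 unit of each other in both genes, while phenobarbital animal 1 was the lowest of its group.

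Axin2, the scaffold of the destruction complex and the most used Wnt reporter, had -0.94, 0.65 and 0.80 in phenobarbital livers. No control array measured it well above background, so that it was at least 9.4-fold higher (adjusted p = 0.0164, 0.00509 to 0.0657 with 1 animal left out). Lef1, a transcription factor partner of beta-catenin that adult hepatocytes hardly express, was likewise at least 5.36-fold higher, and Apcdd1, a Wnt inhibitor, at least 2.69-fold (adjusted p = 0.000347 and 0.0038). Wif1, a secreted Wnt inhibitor, rose by 5.59 ± 0.23 (adjusted p = 0.000347), with 1 of 3 control arrays above background. Sp5 rose by 4.12 ± 0.49 and Tnfrsf19 (TROY) by 3.79 ± 0.30. Apc, the tumour suppressor of the same destruction complex, was the member that fell, with -0.08, 0.11 and -0.68 in phenobarbital livers, against 1.32, 1.19 and 1.23 in controls (-1.46 ± 0.22, adjusted p = 0.0127, 0.00851 to 0.0558), and is named after its value was seen. A second Apc probe, above background on no array, gave 0.03. Tbx3, a transcription factor downstream of beta-catenin, had 4.48, 5.39 and 5.6 in phenobarbital livers, against 2.82, 4.48 and 3.89 in controls. Phenobarbital animal 1 and control animal 2 met at 4.48, and the change of 1.42 ± 0.48 did not pass (adjusted p = 0.0894, and 0.038 without phenobarbital animal 1).

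The pericentral genes rose alongside. Of 19 tested 12 rose and 1 fell, with a median of 1.59, and 7 to 9 rose when any animal but phenobarbital animal 1 was left out. Glul, the glutamine synthetase of the last hepatocyte rows around the central vein, had 8.62, 9.65 and 9.63 in phenobarbital livers, against 6.04, 6.04 and 6.28 in controls, a 9.04-fold rise (3.18 ± 0.29, adjusted p = 0.00284). Rhbg, the ammonium transporter of the same cells, had 6.97, 7.97 and 8.38 in phenobarbital livers, against 3.93, 4.09 and 4.05 in controls (3.75 ± 0.35, adjusted p = 0.00289). The controls of both genes agreed within 0.3 units and every phenobarbital liver lay more than 2 units above them. Tuba8 rose by 4.60 ± 0.35, Lhpp by 2.92 ± 0.36 and Slc1a2, a glutamate transporter, by 2.46 ± 0.30. Hpd fell by 0.69 (adjusted p 0.00899 to 0.101 with 1 animal left out), named as the only member that fell, after its value was seen. Cyp7a1, which begins bile acid synthesis, did not pass at 0.58 ± 0.26 (adjusted p = 0.16, 3.77, 3.88 and 4.40 in phenobarbital livers against 3.17, 3.90 and 3.23 in controls).

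The periportal genes had lower levels, and here the phenobarbital animals differed most. All 20 members tested had a fitted change below 0, with a median of -2.43, and for 16 of them the groups did not overlap, which held for 24.3% of all genes in that direction. Only 3 passed the test: Ctsc (-0.89 ± 0.16, adjusted p = 0.0225), Igf1 (-1.73 ± 0.38, adjusted p = 0.0336) and Pigr, the immunoglobulin receptor (-2.36 ± 0.60, adjusted p = 0.0467), each called in at most 2 of the 6 fits that left out 1 animal. Their adjusted p values over those fits reached 0.0851, 0.112 and 0.139. Without phenobarbital animal 1, 19 of the 20 were lower with a median of -3.47, while leaving out any other animal left at most 1. Cps1, the first enzyme of the urea cycle, had 5.16, 2.74 and 0.39 in phenobarbital livers, against 6.14, 6.0 and 6.18 in controls. The controls lay within 0.2 units of each other, and each phenobarbital liver lay more than 2 units from the next, with animal 3 lowest. The change of -3.34 ± 1.09 did not pass (adjusted p = 0.0837), and was -4.54 without phenobarbital animal 1 (adjusted p = 0.00593). Hsd17b6, a steroid dehydrogenase, had 2.52, 0.02 and -1.40 in phenobarbital livers, against 3.65, 3.42 and 3.70 in controls (-3.21 ± 0.91, adjusted p = 0.0608, and 0.00196 without animal 1). The summed signal of the periportal genes was 612 to 2690 in phenobarbital livers, against 3780 to 4100 in controls, in multiples of the array's 75th percentile. Here and below such sums take in every list member on the array, tested or not. In bulk tissue such as this, fewer cells that express a gene and less RNA per cell cannot be told apart.

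**Figure D3:**
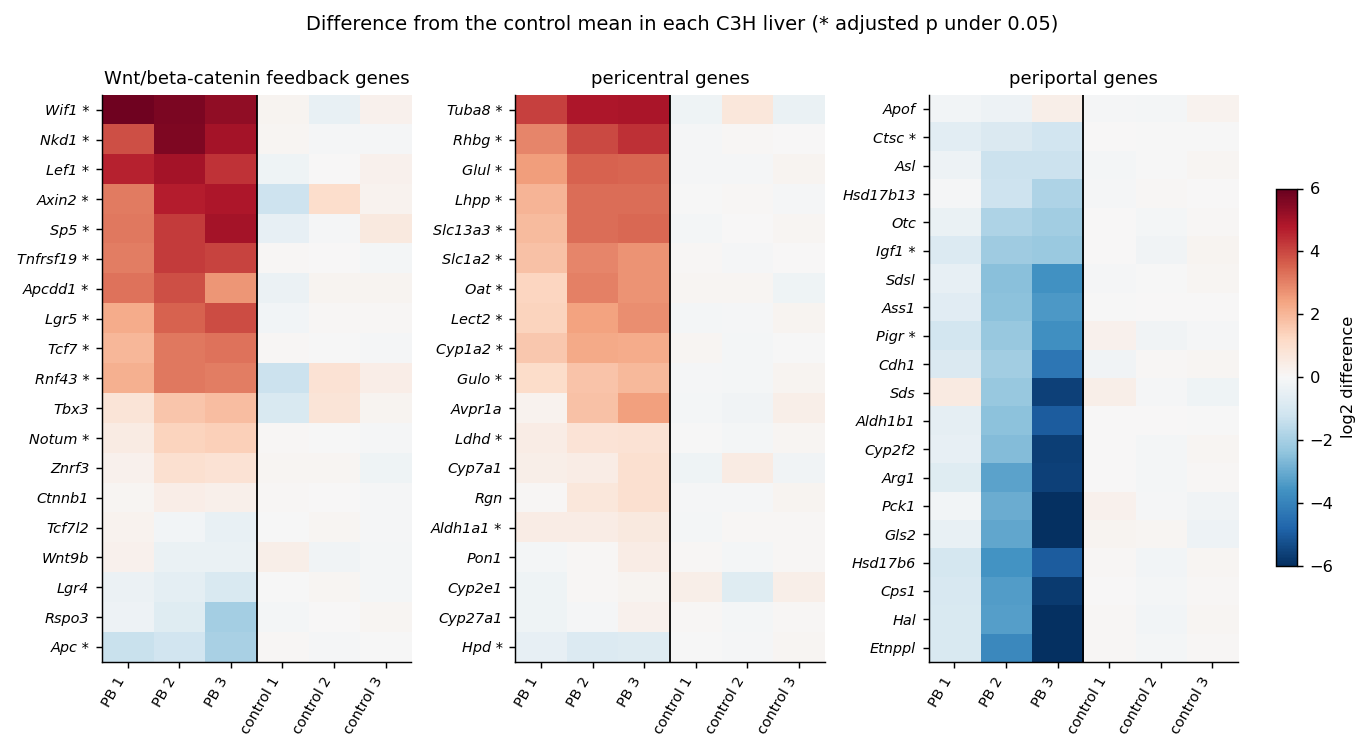
Difference of each C3H liver from the control mean (log2, colours end at 6 in either direction) for the tested members of the Wnt and beta-catenin feedback, pericentral and periportal lists, with PB animals left of controls. Genes with a star passed an adjusted p of 0.05. The periportal block is deepest in PB animal 3, with medians of -0.58, -2.48 and -4.66 in animals 1, 2 and 3, while the Wnt block is raised in all 3.

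Genes of the dividing cell rose together. Of 29 tested of 34 listed genes of S phase, G2 and mitosis 26 rose and none fell, with a median of 3.74. It was 2.79 with the 7 members measured on no control array at their lower bound. Those 7 were tested only through the phenobarbital group and could hardly fall. Aurkb, Cdc25c, Cdc6, Cenpf and Ttk were not tested, since none was well above background on every array of a group. With normexp background and quantile normalization 25 rose and the median was 1.36. With any 1 animal left out 18 to 27 rose. Mki67, which encodes the proliferation antigen Ki-67, had 1.73, 2.48 and 3.32 in phenobarbital livers, against -2.5, -1.36 and -2.57 in controls (4.65 ± 0.49, adjusted p = 0.00422), and its second probe gave 4.42. Cdc20, an activator of the anaphase-promoting complex, had 3.34, 3.67 and 4.69 in phenobarbital livers, against -1.48, -0.89 and -1.68 in controls (5.25 ± 0.38, adjusted p = 0.00163). In both genes animal 3 was the highest phenobarbital liver and control animal 2 the highest control. Birc5 (survivin) rose by 4.76 ± 0.38, Ccna2 (cyclin A2, 1 of 3 control arrays above background) by 4.72 ± 0.41 and Ccnb2 by 3.68 ± 0.36.

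The G1 regulators and Gadd45 genes rose less. Of 22 tested 11 rose and 1 fell, with a median of 1.01 (0.60 in the normexp setting), and 5 to 8 rose when any animal but phenobarbital animal 1 was left out. Ccnd1 (cyclin D1), which couples growth signals to the cell cycle, had 2.89, 3.16 and 3.96 in phenobarbital livers, against 0.78, 1.12 and 0.93 in controls (2.39 ± 0.28, adjusted p = 0.00639). Myc had 1.45, 1.46 and 1.6 in phenobarbital livers, against -1.18, -1.09 and -1.73 in controls (2.84 ± 0.19, adjusted p = 0.00142). Gadd45b, a stress gene that CAR induces early, had 2.16, 2.55 and 3.28 in phenobarbital livers, against -1.09, 0.60 and -0.48 in controls (2.99 ± 0.48, adjusted p = 0.0152, 0.00811 to 0.0671 with 1 animal left out). None of the 3 genes had overlapping groups, which held for every called gene. Cdkn2c, an inhibitor of the cyclin D kinases, rose too, by 2.31 ± 0.18 (adjusted p = 0.0019), as did Gadd45g (2.28 ± 0.19) and Ccne1 (2.02 ± 0.20). The member that fell was E2f7 (-0.57, 0.0218 to 0.114 with 1 animal left out), named after its value was seen.

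Immediate-early genes, which respond to stimuli within minutes and also to the handling of tissue, were higher as well. Of 17 tested immediate-early and heat-shock genes 10 rose and none fell, with a median of 1.63 (0.82 in the normexp setting), and 4 to 7 rose when any animal but phenobarbital animal 1 was left out. Jun had 6.42, 7.30 and 6.36 in phenobarbital livers, against 3.82, 3.90 and 2.94 in controls (3.14 ± 0.35, adjusted p = 0.0053). Fos was at least 29.5-fold higher (adjusted p = 0.00262), and Atf3 had 3.59, 5.24 and 4.59 in phenobarbital livers, against -1.57, 0.46 and -1.64 in controls (5.40 ± 0.67, adjusted p = 0.00691). Phenobarbital animal 2 was the highest liver for Jun, Fos and Atf3. Of 21 ER stress and ATF4 targets 6 rose and 1 fell (median 0.13), with Ddit3 (CHOP) at 2.46 ± 0.30 and Trib3 at 2.0 ± 0.25 (adjusted p = 0.00691 for both). Of 18 p53 targets 4 rose and 2 fell (median 0.39, and 1 or 2 rose and none fell when any animal but phenobarbital animal 1 was left out), led by the antiproliferative gene Btg2 (3.01 ± 0.31, adjusted p = 0.00407). Of 13 members of the Bcl2 family 3 rose and none fell (median 0.18), with 1 higher in each fit without an animal other than phenobarbital animal 1, and Hrk, a BH3-only protein, was at least 7.69-fold higher (adjusted p = 0.00263).

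Markers of fetal liver and liver tumours were higher in part. Of 24 tested of 34 listed 11 rose and 1 fell, with a median of 1.67 (8, 1 and 0.80 in the normexp setting), and 5 to 9 rose when any animal but phenobarbital animal 1 was left out. Ly6d, a small membrane protein, had the largest rise of the named genes above background on all 6 arrays: 6.99, 7.54 and 7.85 in phenobarbital livers, against -2.41, 1.27 and -2.22 in controls (8.58 ± 0.96, adjusted p = 0.0053). Control animal 2 again lay above the other controls and more than 5 units under the phenobarbital livers. Prom1 (CD133), a progenitor marker, rose by 4.61 ± 0.35 (adjusted p = 0.00177). The imprinted neighbours Dlk1, Meg3 and Mirg all rose: Dlk1 had 2.64, 1.28 and 3.20 in phenobarbital livers, against -2.17, -2.35 and -2.17 in controls (4.60 ± 0.46, adjusted p = 0.00372), Meg3 rose by 3.82 ± 0.41 (adjusted p = 0.00437) and Mirg by 3.95 ± 0.54 (adjusted p = 0.00946).

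Afp, alpha-fetoprotein, had 2.43, 5.0 and 4.24 in phenobarbital livers, against -0.62, 1.75 and -0.77 in controls. The lowest phenobarbital liver and the highest control stood 0.7 apart, and the change of 3.77 ± 0.88 passed narrowly (adjusted p = 0.0388, 0.0113 to 0.124 with 1 animal left out). Sox9, a progenitor and bile duct factor, went the other way and was well above background on no phenobarbital array, at least 4.43-fold lower (adjusted p = 0.0217, 0.0151 to 0.0836). Among 25 growth factors and receptors 6 rose and 3 fell (median 0.27, and 0.11 in the normexp setting). When phenobarbital animal 1 was left out 8 rose and 7 fell, and 0 to 3 rose and 0 or 1 fell when any other animal was left out. Egfr had 5.25, 3.46 and 3.11 in phenobarbital livers, against 6.56, 6.0 and 6.59 in controls (-2.45 ± 0.55, adjusted p = 0.0358, 0.00107 to 0.116), and its other probes gave -1.49 and -1.68. Tgfbr2 rose by 1.42 (adjusted p 0.00196 to 0.0584) and Pdgfa by 1.90 (0.000855 to 0.0647).

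Sex-biased liver genes moved in opposite directions in these male mice. Of 17 tested female-biased genes 10 rose and 1 fell, with a median of 2.86, or 1.98 with the 4 genes measured in only 1 group at their bound. Each of those 4 was tested only through the group that measured it, and could hardly change the other way. In the normexp setting 9 rose, 1 fell and the median was 1.07. Cyp2a4, Cyp2b9, Cyp2b13 and the sulfotransferases Sult1e1 and Sult2a2, given above, are among those that rose, and some of them are also CAR targets. Without phenobarbital animal 1 the median was 2.57, and 5 to 8 rose when any other animal was left out. All but 1 of the 19 tested male-biased genes had a change below 0, with a median of -1.33, and 4 of them passed. Elovl3, a fatty acid elongase, had 3.54, 4.17 and 4.05 in phenobarbital livers, against 6.59, 6.22 and 6.88 in controls (-2.64 ± 0.24, adjusted p = 0.00263). Hsd3b5, a male-specific steroid dehydrogenase, had 6.80, 5.48 and 4.35 in phenobarbital livers, against 8.13, 7.58 and 8.15 in controls (-2.41 ± 0.58, adjusted p = 0.0415, 0.00383 to 0.129 with 1 animal left out). Both groups were apart at Elovl3 with little spread, while Hsd3b5 was lowest in phenobarbital animal 3 and highest in animal 1, as Cps1 was. Cyp7b1 fell by 2.14 (0.00121 to 0.104). Without phenobarbital animal 1, 16 of the 19 were lower, and 1 or 2 when any other animal was left out.

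Growth hormone sets this sex bias through STAT5 in mouse liver. Of 12 genes of that pathway 1 rose and 4 fell, with a median of -0.71. Socs3, a cytokine signal inhibitor, had 3.48, 4.10 and 2.40 in phenobarbital livers, against -0.08, 0.54 and 0.20 in controls (3.11 ± 0.43, adjusted p = 0.00975). Prlr, the prolactin receptor, fell by 1.20 ± 0.18 (adjusted p = 0.0132, 0.0113 to 0.0551) and Ghr, the growth hormone receptor, by 0.65 (0.0149 to 0.103). Igf1, given above, and Igfals (-0.97, 0.00649 to 0.12) are the hormone's secreted products. The last 3 genes were called without phenobarbital animal 1 and lost their call without any other animal.

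Of 18 genes that make glucose or break down amino acids 7 fell and 1 rose, with a median of -1.08. G6pc, the last step of glucose release, had 4.09, 5.27 and 5.58 in phenobarbital livers, against 8.09, 7.86 and 7.09 in controls (-2.70 ± 0.44, adjusted p = 0.0164, 0.00574 to 0.0645 with 1 animal left out). Here phenobarbital animal 1 was the lowest of all 6 livers. Cbs, of the transsulfuration pathway, had 7.85, 7.66 and 7.83 in phenobarbital livers, against 9.02, 8.79 and 9.03 in controls (-1.16 ± 0.13, adjusted p = 0.0053). Tat fell by 1.44 (0.00382 to 0.118) and Tdo2 by 0.99 (0.00285 to 0.104). Without phenobarbital animal 1, 12 of the 18 were lower, and 1 or 2 when any other animal was left out. Of 14 bile acid genes 3 fell and 1 rose (median -0.46), among them Osgin1, an FXR-induced gene, which fell by 1.27 ± 0.18 (adjusted p = 0.0111), and Akr1c14, which rose by 1.08 ± 0.12 (adjusted p = 0.0052). None of 24 genes of cholesterol synthesis and uptake passed, by limma, at a list median of 0.31, and 9 rose without phenobarbital animal 1.

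Of 25 acute phase proteins 6 fell and 1 rose, with a median of -0.59. The fit without phenobarbital animal 1 called 12 lower, and fits without another animal 0 to 3. The 3 fibrinogen chains Fga (-1.36, adjusted p 0.00151 to 0.0669 with 1 animal left out), Fgb (-0.99, 0.00277 to 0.0722) and Fgg (-0.98, 0.00399 to 0.122) all fell. Orm3, an orosomucoid, had 4.00, 4.06 and 4.02 in phenobarbital livers, against 1.03, 1.6 and 1.41 in controls (2.68 ± 0.17, adjusted p = 0.00115), with phenobarbital values that differed by less than 0.1. Of 20 interferon-stimulated genes 5 rose and none fell (median 0.59, and 0.39 in the normexp setting), led by Usp18, a brake on interferon signalling (2.02 ± 0.14, adjusted p = 0.00153). Of them 1 to 3 rose when any animal but phenobarbital animal 1 was left out.

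The defining markers of the labelled tissue were present. All 18 hepatocyte secreted proteins, Alb, Ttr and Apoa1 among them, were measured on all 6 arrays. Alb had 10.67, 10.56 and 10.29 in phenobarbital livers, against 11.33, 11.15 and 11.17 in controls (-0.71 ± 0.14, adjusted p = 0.028, 0.0132 to 0.102 with 1 animal left out). The list had 8 members lower and a median of -0.50, but with quantile normalization 1 was lower and the median was -0.21, and with normexp background and quantile normalization 4 were lower at -0.22, so that the size of this fall depends on the scaling. Of these 18, 13 were lower by limma without phenobarbital animal 1, and none when any other animal was left out. Its summed signal was 17700 to 21700 in phenobarbital livers, against 26100 to 28500 in controls. Of 16 Kupffer cell and macrophage markers 1 rose (Spic, 1.09, adjusted p 0.0168 to 0.13) and none fell, at a median of -0.15 and a summed signal of 117 to 145 in phenobarbital livers, against 129 to 166 in controls. Of 8 lymphocyte markers 1 rose (Gzma, 0.69, 0.0234 to 0.107), while Cd8a and Ms4a1 were above background on no array. The summed signal of the 17 lymphocyte markers on the array was 23.7 to 47.2 in phenobarbital livers, against 56.4 to 74.8 in controls. None of 5 tested neutrophil markers passed, and the summed signal of all 12 on the array was 78.6 to 98.2 in phenobarbital livers, against 101 to 114 in controls.

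Among 18 endothelial markers Cd34 (2.32, adjusted p 0.000988 to 0.0677 with 1 animal left out) and Lyve1 (1.34, 0.00276 to 0.123) rose. Kdr (-0.65, 0.0188 to 0.13) and Bmp2 (-0.85, 0.00621 to 0.131) fell, the list median was -0.12, and the summed signal was 114 to 152 in phenobarbital livers, against 173 to 186 in controls. Second probes gave 0.12 for Cd34, above background on no array, and -0.24 for Kdr. Of 19 markers of stellate cells and fibrosis 2 rose (Fbn1, at least 1.52-fold, adjusted p 0.00364 to 0.0722 with 1 animal left out, and Mmp13, at least 2.37-fold, 0.0161 to 0.123) at a median of 0.32 and a summed signal of 86.8 to 136 in phenobarbital livers, against 129 to 154 in controls. Without phenobarbital animal 1, 9 of them were higher and 2 lower. Of 8 bile duct markers Krt19, a keratin, had 0.07, 1.56 and 2.25 in phenobarbital livers, against -1.54, -1.63 and -1.64 in controls (2.90 ± 0.51, adjusted p = 0.02, 0.000652 to 0.0805), Sox9 fell, and Epcam and Cftr were above background on no array. The bile duct list had a median of -0.40, with 3 changes above 0 and 5 below. Its 15 markers on the array summed to 86.8 to 179 in phenobarbital livers, against 60 to 84 in controls. None of 8 tested red blood cell markers passed (median -0.41), and the 10 on the array summed to 715 to 877 in phenobarbital livers, against 909 to 1270 in controls. The summed signals of the lymphocyte, neutrophil, endothelial and red blood cell markers were thus lower in every phenobarbital liver than in any control, as were those of the hepatocyte secreted proteins. Those of the bile duct markers were higher, against a list median below 0. Such a sum rests mostly on its brightest genes. The list medians were -0.03 for lymphocyte and -0.09 for neutrophil markers, against -0.045 over all tested genes, and no member of these 2 lists was called lower. Of 6 exocrine pancreas markers, Cela1, an elastase, rose by 4.31 ± 0.53 (adjusted p = 0.00691), Cela3b was at least 3.24-fold higher (adjusted p 0.0281 to 0.148 with 1 animal left out) and Ctrb1 fell by 0.77 (0.00724 to 0.0673), while Prss2, Cpa1 and Pnlip were above background on no array. Of 3 adipocyte markers Fabp4 rose by 1.56 (0.00172 to 0.121) and Adipoq was above background on no array. The part of these cell markers in the results above was not tested.

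**Figure D4:**
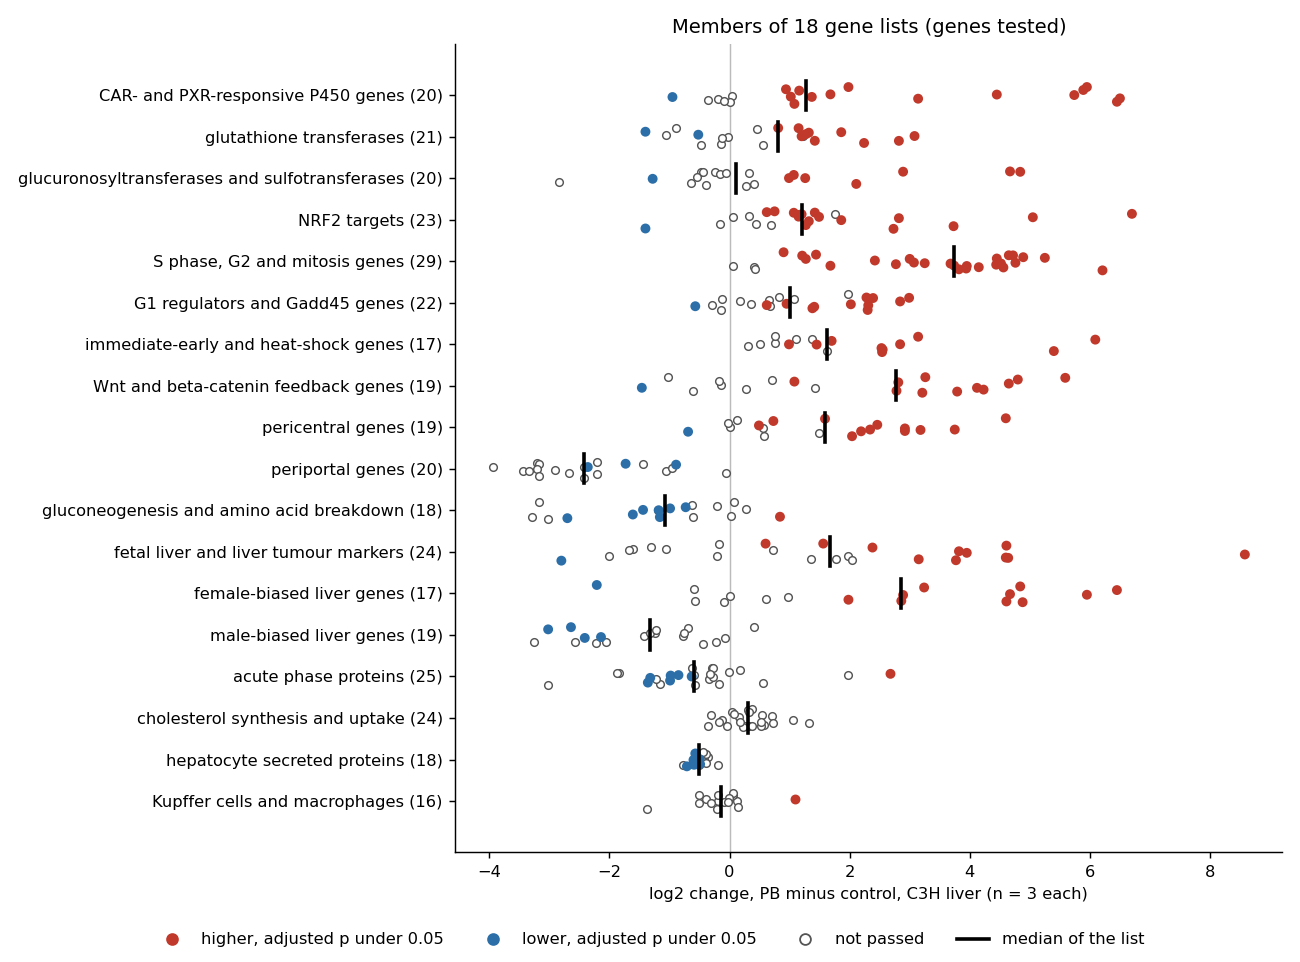
Log2 change of the tested members of 18 gene lists in C3H liver, PB minus control (n = 3 each), with members that passed in red (higher) or blue (lower), the others open, and the list median as a black bar. The P450, mitosis, Wnt feedback and pericentral lists lie mostly to the right of 0, with medians of 1.27, 3.74, 2.78 and 1.59. For the mitosis and Wnt lists these are 2.79 and 1.43 with genes measured on no control array at their lower bound. In the normexp setting they are 1.36 and 1.02. The periportal list lies to the left at -2.43, with 3 of its 20 members passing.

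Outside the lists, the largest rises among genes above background on all 6 arrays included Mogat2, a monoacylglycerol acyltransferase, with 5.38, 5.54 and 4.70 in phenobarbital livers, against -0.90, -0.38 and -0.78 in controls (5.89 ± 0.26, adjusted p = 0.000347). Calml4, a calmodulin-like protein, rose by 5.56 ± 0.40 (adjusted p = 0.00162) and Esm1, a secreted endothelial proteoglycan, by 4.86 ± 0.93 (adjusted p = 0.0239, 0.00734 to 0.0897). Genes with no control array well above background gave the largest lower bounds, at least 110-fold for Acsm4, an acyl-CoA synthetase, 49.7-fold for Inpp5j, 47.9-fold for Gipc2, 44.2-fold for Teddm1b, 41-fold for Pkp1, a desmosomal protein, 40.4-fold for Sidt1 and 31.8-fold for Plat, tissue plasminogen activator. Their adjusted p values lay between 0.000347 and 0.00256. Acsm4 had 3.44, 4.03 and 3.57 in the phenobarbital livers.

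The largest falls were smaller than the largest rises. Enho, which encodes the hepatic peptide adropin, had 6.15, 3.81 and 2.19 in phenobarbital livers, against 7.73, 7.58 and 7.88 in controls (-3.68 ± 0.91, adjusted p = 0.0436, 0.00205 to 0.131 with 1 animal left out). Rnase2a had -0.39, -0.11 and -0.50 in phenobarbital livers, against 2.42, 1.63 and 2.56 in controls (-2.54 ± 0.27, adjusted p = 0.00424), and Slc30a10, the manganese exporter, had -0.53, -0.80 and -1.48 in phenobarbital livers, against 1.35, 1.43 and 1.72 in controls (-2.44 ± 0.26, adjusted p = 0.00442). Rnase2a and Slc30a10 spread over less than 1 unit among the phenobarbital livers, and Enho over more than 3. Rdh16f2 (-3.37), Ripply2 (-2.69), Dpy19l3 (-2.51) and Dleu2 (-2.45) fell with ranges of 0.00181 to 0.106, 0.00137 to 0.135, 0.00159 to 0.106 and 0.000936 to 0.105. Lag3, an immune checkpoint gene, was at least 8.65-fold lower (adjusted p = 0.00253), with no phenobarbital array above background, and Car15 at least 2.93-fold (adjusted p = 0.00269). The same bound was 4.62-fold for Sgsm1, 3.31-fold for Ttyh1, 2.59-fold for Tmem178b, 2.58-fold for Ces4a and 2.24-fold for Nipal1, with adjusted p values that reached 0.0544, 0.104, 0.0856, 0.0746 and 0.108 when 1 animal was left out.

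Set beside the 2 experiments without diethylnitrosamine, the effects in C3H liver differed at Wnt genes such as Glul and Lgr5. The difference between effects was tested in 1 limma fit of all 28 arrays, which pools the spread within all groups. Where the C3H animals spread widely, such as at Cps1 or Afp, its SE lies below that of the C3H change alone. Against hCAR/hPXR mice 745 genes (3.62%) had a higher and 850 (4.14%) a lower effect in C3H liver, 7.76% of 20553 tested. Against CD-1 mice the counts were 2395 (9.17%) and 1297 (4.97%), 14.1% of 26114. The effects also differ in dose, time, strain, the carcinogen and the slide, which cannot be told apart, the treated CD-1 animals lie on a slide of their own, and 6 of 7 treated hCAR/hPXR animals on a slide without controls. The CD-1 arrays were also noisier, with a median CV of replicate spots of 11.04 to 21.21%, against 5.12 to 6.6% on C3H arrays. Their signals spanned a narrower range: the median probe lay at -1.74 to -1.3, against -3.86 to -3.45 on C3H arrays. How far this shrinks the CD-1 effects was not tested. Cyp2b10 changed by 5.74 in C3H liver, against 4.49 in hCAR/hPXR and 6.66 in CD-1 liver, with differences of 1.25 ± 0.52 and -0.92 ± 0.58 that did not pass (adjusted p = 0.144 and 0.286). Por changed by 2.23 in C3H liver, against 1.09 in hCAR/hPXR and 2.05 in CD-1 liver (adjusted p = 0.066 and 0.811), and Gadd45b by 2.99 in C3H liver, against 3.05 in hCAR/hPXR and 2.06 in CD-1 liver (adjusted p = 0.946 and 0.189, and with quantile normalization the difference from CD-1 was -0.63).

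Glul changed by 3.18 in C3H liver, against 0.03 in hCAR/hPXR and -1.88 in CD-1 liver, and both differences passed (3.15 ± 0.39, adjusted p = 6.34e-06, and 5.05 ± 0.43, adjusted p = 1.29e-08). Lgr5 changed by 3.21 in C3H liver, against -0.86 in hCAR/hPXR and -1.44 in CD-1 liver (differences 4.07 ± 0.41 and 4.65 ± 0.46, adjusted p = 2.03e-07 and 1.24e-07). No treated and 2 of 4 control CD-1 arrays measured Lgr5 well above background. The tests also called Axin2 and Afp against both experiments, but no C3H control and no CD-1 array measured Axin2, and no CD-1 array Afp, well above background, so that these differences have no exact size. Mki67 changed by 4.65 in C3H liver, against 2.36 in hCAR/hPXR and 1.24 in CD-1 liver, and the difference passed against CD-1, with 1 of 4 CD-1 control arrays above background (3.41 ± 0.80, adjusted p = 0.00571), and not against hCAR/hPXR (2.29 ± 0.72, adjusted p = 0.0506). Of the 18 genes compared, 4 differed from hCAR/hPXR and 8 from CD-1 mice. Mouse Nr1i3 and Nr1i2 are among those whose difference from hCAR/hPXR did not pass. Nr1i3 was well above background on 1 treated and 0 control hCAR/hPXR arrays, and Nr1i2 on 0 and 1 (n = 7 each). Their effects in hCAR/hPXR liver therefore have no exact size.

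**Figure D5:**
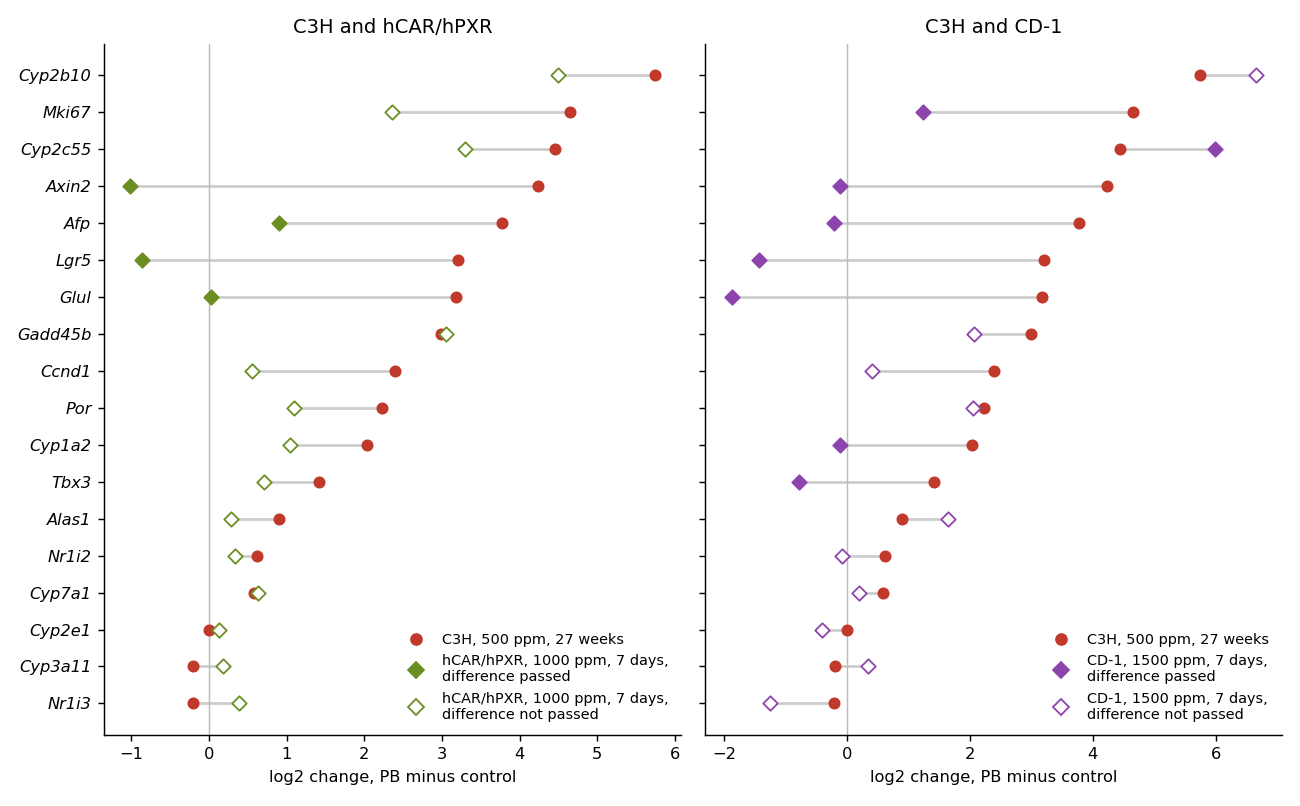
Log2 change, PB minus control, of 18 genes in C3H liver (red circles, 500 ppm for 27 weeks after diethylnitrosamine) beside hCAR/hPXR liver (green diamonds, 1000 ppm for 7 days) on the left and CD-1 liver (purple diamonds, 1500 ppm for 7 days) on the right. Filled diamonds mark a difference between effects with an adjusted p under 0.05. The open green diamonds of Nr1i3 and Nr1i2 have no exact place, since both genes lay at background on nearly all hCAR/hPXR arrays. Glul, Lgr5, Axin2 and Afp are apart on both sides, though Axin2 lay at background on the C3H control and CD-1 arrays and Afp on the CD-1 arrays, while Cyp2b10, Por and Gadd45b have open diamonds.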

How the data were processed

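Total RNA of 28 livers was hybridised in 1 colour (Cy3), 1 array per animal. The deposited scanner files hold spot intensity, background-subtracted and detrended within the array per the file headers, which give mm9 as the annotation build. The series table that the authors deposited holds log2 values, which equal the log2 processed signal minus a constant per array. Whether the 3 samples of a group differ in more than the animal is not stated, so p-values measure the spread between these animals.

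The log2 processed signal minus each array's 75th percentile was fitted with limma 3.58.1 in R 4.3.3 (lmFit, eBayes) and Benjamini-Hochberg adjustment. Control spots and outlier spots were left out. Each gene was represented by its brightest probe over the 6 arrays and tested where it was well above background on every array of 1 group. RefSeq accessions gave 26582 of 55681 probes a symbol, 29099 kept the file's accession, and 9668 genes had several probes. Differences between experiments were tested in 1 fit of all 28 arrays. The procedure was tested on simulated data. These drew both groups as independent values with the spread of the control animals. The median SD was 0.224 in phenobarbital and 0.154 in control livers, so that the simulation does not cover the uneven phenobarbital group.

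The genes and the 42 gene lists were chosen with earlier results of these data known. The text names 18 fixed genes, the 12 largest rises and falls of genes with a symbol above background on all 6 arrays, the 8 largest bounds each way, up to 6 called members per list by adjusted p, and the 3 largest differences each way between experiments. Quantile normalization, normexp with an offset of 50, other filters, the deposited table, other probe rules, blocks and leaving out each animal were tried. The slide row block and the list counts without each animal were chosen after seeing the data.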

Additional observations from a re-analysis of the deposited data

Results flagged for a closer look

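The following effects of phenobarbital differed between C3H liver and another experiment in the test of the difference itself. Dose, time, strain, carcinogen and slide differ along with the experiment and cannot be told apart, and the CD-1 arrays were noisier with a narrower range of signal. Against hCAR/hPXR liver the difference was 4.07 for Lgr5, 4.78 for Nkd1 (adjusted p = 6.15e-09), 3.15 for Glul and 2.87 for Afp (adjusted p = 0.00345), all with the larger change in C3H liver. The fitted difference for Axin2 was 5.23 (adjusted p = 6.85e-07), which is no exact size because 0 of 3 C3H control arrays measured Axin2 well above background. Bpifa5 changed by 3.62 in C3H liver, against -1.41 in hCAR/hPXR liver, a difference of 5.03 (adjusted p = 3.23e-08). Duox1, which makes hydrogen peroxide, changed by 2.35 in C3H liver, against -2.48 in hCAR/hPXR liver, a difference of 4.83 (adjusted p = 1.25e-07). Cyp3a44 changed by -0.09 in C3H liver, against 3.74 in hCAR/hPXR liver, a difference of -3.82 (adjusted p = 0.000162). The periportal genes Cps1 and Hsd17b6 differed by -3.78 and -3.73 (adjusted p = 0.00364 and 0.00257). Neither gene passed in the test of C3H liver alone, where the phenobarbital animals spread widely. The test of the difference pools the spread within all groups. Its SE at Cps1, Hsd17b6 and Afp lies below that of the C3H change alone, so that these adjusted p values do not make the C3H changes themselves firm.

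Against CD-1 liver the difference was 5.05 for Glul, 2.21 for Tbx3 and 2.16 for Cyp1a2. Fitted differences with no exact size, since a group lay at background, were 4.65 for Lgr5 (above background on 0 of 4 treated and 2 of 4 control CD-1 arrays), 4.34 for Axin2 (on no CD-1 and no C3H control array) and 3.99 for Afp (on no CD-1 array). Mki67, above background on 3 of 4 treated and 1 of 4 control CD-1 arrays, gave 3.41. Ly6d changed by 8.58 in C3H liver, against 0.45 in CD-1 liver, a difference of 8.14 (adjusted p = 8.37e-06), and Cyp2c66 by 5.89 in C3H liver, against 0.84 in CD-1 liver, a difference of 5.05 (adjusted p = 7.96e-07). Spats2l changed by 1.07 in C3H liver, against -4.0 in CD-1 liver (difference 5.07, adjusted p = 2.79e-11). In the other direction Cyp2c55 changed by 4.45 in C3H liver, against a fitted 5.99 in CD-1 liver that rests on 4 control arrays at background (difference -1.55, adjusted p = 0.0466), and Pax2 by -3.32 in C3H liver, against 1.87 in CD-1 liver (difference -5.19, adjusted p = 0.000776). S100a8, a neutrophil calgranulin, changed by 1.63 in C3H liver, against 6.67 in CD-1 liver (difference -5.04, adjusted p = 0.00512), and Saa1, an acute phase protein, by -1.84 in C3H liver, against 2.09 in CD-1 liver (difference -3.92, adjusted p = 0.0334).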

How the results depend on the processing

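In C3H liver, 1371 genes were higher and 1334 lower. The counts were 460 and 141 with no filter on dim probes, 904 and 506 for changes of at least 2-fold, 427 and 176 with the slide row as a block, and 963 and 597 with the replicate number as a block. Same-numbered animals correlated at 0.171, 0.185 and 0.045 in their deviations from the group mean, and different-numbered animals at -0.179 to 0.085. Phenobarbital animal 3 correlated best with control animal 2 (0.085). With 3 animals a group these deviations depend on each other, so that the check cannot show whether the numbers pair the samples. Leaving out 1 animal gave 442 to 2402 higher and 114 to 3009 lower. Against hCAR/hPXR the counts were 469 and 273 with quantile normalization, 340 and 542 with every array above background, and 443 to 891 and 421 to 1236 with 1 C3H animal left out. Against CD-1 they were 3445 and 2088 with quantile normalization, 4454 and 3382 with normexp and quantile normalization, 1266 and 335 with every array above background, and 1605 to 2522 and 725 to 1717 with 1 C3H animal left out. Of 147 named genes that passed, 62 missed the threshold with no filter, 65 with the slide row as a block and 30 with the replicate block. With the normexp setting 57 of the 147 had a change over 1.5 times smaller, and with quantile normalization 5. The cause of these shifts was not tested.

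The following signs turned. With quantile, then normexp and quantile normalization, Cyp2e1 changed by 0.37 and 0.41, and Cyp3a11 by 0.06 and 0.05. Cyp2e1 gave 0.00 in the deposited table, 0.11 over the mean of all probes, and -0.37 to 0.19 with 1 animal left out, and Cyp3a11 gave 0.00 over all probes. Cyp3a44 gave 0.02 with normexp and -0.59 to 0.27 with 1 animal left out. Against hCAR/hPXR, Cyp2e1 differed by 0.53 (quantile), 0.48 (normexp), 0.02 (all probes) and -0.5 to 0.06 (1 animal left out), Nr1i3 by 0.07 over all probes, Cyp3a11 by 0.07 and Cyp7a1 by 0.06 with quantile normalization, and with 1 animal left out Cyp7a1 by -0.23 to 0.19 and Gadd45b by -0.45 to 0.40. Nr1i3 lay at background on nearly all hCAR/hPXR arrays, so that the sign of its difference has little meaning. Against CD-1, quantile and normexp gave -0.11 and -0.03 for Por and -0.63 and -0.49 for Gadd45b. The number of 3 animals a group limits the precision, and genes near background on the arrays have only bounds.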

Other observations

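In several groups of genes outside the main patterns few members were called. Over all tested genes 14.8% were called, 7.48% higher and 7.28% lower, and counts this small say little about a group. The members named have their range of adjusted p over the fits that left out 1 animal. Of 9 DNA methylation enzymes 3 rose and none fell (median 0.13, and 0 to 2 rose when any animal but phenobarbital animal 1 was left out). Uhrf1, the partner of the maintenance methyltransferase, had 0.32, 1.40 and 1.78 in phenobarbital livers, against -3.39, -1.55 and -2.46 in controls (3.63 ± 0.55, adjusted p = 0.0131, 0.00439 to 0.0578). Dnmt3a, a de novo methyltransferase, rose by 1.21 (0.00675 to 0.0589). Of 22 genes of fatty acid synthesis 3 rose and 1 fell (median 0.24, and 0 or 1 rose and none fell in those fits). Pparg, a regulator of lipid storage, had 0.97, 2.21 and 3.08 in phenobarbital livers, against -0.64, -0.04 and -0.53 in controls (2.49 ± 0.51, adjusted p = 0.0288, 0.00244 to 0.102). Its phenobarbital values spread over 2 units with animal 1 lowest, and the groups did not overlap, as at every called gene.

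Of 23 genes of glycolysis and the pentose phosphate pathway 4 rose and none fell (median -0.05, and 0 or 1 rose in those fits), led by Tkt, a transketolase (0.69 ± 0.12, adjusted p = 0.0174, 0.013 to 0.0742). Of 12 clock genes 1 fell and none rose (median 0.63), Nfil3, with 3.35, 4.16 and 4.65 in phenobarbital livers, against 5.43, 5.57 and 5.69 in controls (-1.51 ± 0.32, adjusted p = 0.0317, 0.00915 to 0.109).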
